A study of Rattus norvegicus with 36 samples.

Results

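The genes described here act in the endoplasmic reticulum and in the traffic between it and the Golgi: they bring nascent secretory and membrane proteins to the membrane, pass them through it, cut and fold them, and carry them onward. They were taken from the array by symbol, as the families whose names start with Srp and a digit, Ssr, Sec1, Sec2, Sec3, Sec6, Spcs, Tmed, Pdia, Ero1, Derl or Copa, Copb, Cope, Copg and Copz, together with Calr, Canx, Xbp1, Atf4, Atf6 and Ddit3. The rule found 60 probes of 58 genes among 22523 probes, and 50 probes of 49 genes reached a detection score of 0.95 on at least 7 of 36 arrays, where 10956 probes did so in all (7904 genes with a symbol). The 10 probes left out were those of Atf6, Copz2, Derl3, Sec14l3, Sec14l4, Sec14l5, Sec63, Srp9 and Tmed6 and 1 probe of Tmed3, and every count below is of the 50 that passed. Copb1 has 2 probes. The rule also caught Ssrp1, a subunit of a histone chaperone, and the lipid-binding proteins Sec14l1 and Sec14l2, which do not belong to this pathway.

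Each array held the heart RNA of 1 male Wistar Kyoto rat, an offspring of a sham-operated mother with a litter that was not reduced (a Control rat in the study's terms). The labels name no transgene and no drug treatment, and by the study's methods all rats were killed by injection of xylazine and ketamine. Sedentary rats (n = 7) and rats that ran on a treadmill from week 5 to week 9 (early exercise, n = 7) were killed at 9 weeks of age. At 24 weeks of age there were sedentary rats (n = 7), early exercise rats that had trained in weeks 5 to 9 (n = 8) and later exercise rats that trained from week 20 to week 24 (n = 7). By the study's methods, early exercise rats of 9 weeks and later exercise rats were killed a few days after their last run. The early exercise rats of 24 weeks had stayed sedentary since week 9. Up to 3 males came from a litter and the litter of each rat is not in the labels, so rats of different groups may be brothers. By the labels the arrays lay on 3 chips of 12, and each chip held rats of all 5 groups.

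Most secreted and membrane proteins are recognised by the signal recognition particle as they leave the ribosome, and are threaded through the Sec61 channel with the help of the translocon-associated protein complex (TRAP). Signal peptidase then removes the signal sequence, lectin chaperones and disulfide isomerases fold the product, COPII coats carry it to the Golgi and COPI coats bring escaped residents back. When unfolded protein builds up, the transcription factors Xbp1, Atf6, Atf4 and Ddit3 (CHOP) change the output of many of these genes, and in the heart the pathway serves the sarcolemmal and sarcoplasmic reticulum proteins of muscle cells and the extracellular matrix made by fibroblasts.

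Promoter sequence was searched because factors of the unfolded protein response bind known motifs in some of these genes. RefSeq promoters (rat build GRCr8, 250 bases before to 50 after the start) were found for 44 of the 49 genes, and were not matched for Ero1a, Pdia3, Pdia6, Sec61a1 and Sec61a2. The endoplasmic reticulum stress element, CCAAT and CCACG with 9 bases of any kind between them, was searched on both strands. It was present in Xbp1, Calr and Canx, which is 3 of 44 (6.82%) against 21 of 27457 promoters (0.0765%). All 3 are genes that the rule names singly, and no gene taken by family name held the element. The share therefore depends on that choice of names and says nothing of the families. The shorter Xbp1 and Atf6 core TGACGTGG was present in Copb1, Sec23a and Srp19 (3 of 44, against 0.637% of all promoters). The Atf4 and C/EBP composite TGATGNAAT was in none of the 44 (1.05% of all promoters), the second stress element, ATTGG and CCACG with 1 base between them, in none (0.0546%), and the cyclic AMP element TGACGTCA in Cope (2.27%, against 1.91%); these motifs were also read on both strands, and a match is only a match of letters. The promoters of the 3 genes with the stress element, of Copb1 and of Ssr2, the member with the largest change after later training, lie at chr14:84604373-84604672 (Xbp1, plus strand), chr19:40213117-40213416 (Calr, plus), chr10:35157808-35158107 (Canx, minus), chr1:177872791-177873090 (Copb1, minus) and chr2:176345867-176346166 (Ssr2, plus). They are written 5′ to 3′ on the strand of the gene, with the fixed letters of the motif in capitals (on the opposite strand in Calr and Copb1); Ssr2 held none of the 5 motifs.
Xbp1: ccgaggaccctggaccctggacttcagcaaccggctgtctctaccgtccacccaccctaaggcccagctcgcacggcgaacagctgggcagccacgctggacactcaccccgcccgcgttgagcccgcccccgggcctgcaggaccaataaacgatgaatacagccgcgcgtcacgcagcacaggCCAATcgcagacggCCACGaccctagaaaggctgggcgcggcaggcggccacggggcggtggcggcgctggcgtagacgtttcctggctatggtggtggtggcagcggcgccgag
Calr: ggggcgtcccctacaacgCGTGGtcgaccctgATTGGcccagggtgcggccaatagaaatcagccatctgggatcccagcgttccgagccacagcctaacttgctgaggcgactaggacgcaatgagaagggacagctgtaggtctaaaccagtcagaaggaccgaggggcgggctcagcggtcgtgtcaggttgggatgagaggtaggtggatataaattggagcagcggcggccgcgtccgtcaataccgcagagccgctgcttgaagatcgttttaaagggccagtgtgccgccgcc
Canx: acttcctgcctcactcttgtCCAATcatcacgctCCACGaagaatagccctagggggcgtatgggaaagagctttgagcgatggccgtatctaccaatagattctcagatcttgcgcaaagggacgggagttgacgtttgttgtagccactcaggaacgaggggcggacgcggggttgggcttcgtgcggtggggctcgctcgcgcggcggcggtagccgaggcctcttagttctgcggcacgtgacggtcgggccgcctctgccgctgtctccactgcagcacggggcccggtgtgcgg
Copb1: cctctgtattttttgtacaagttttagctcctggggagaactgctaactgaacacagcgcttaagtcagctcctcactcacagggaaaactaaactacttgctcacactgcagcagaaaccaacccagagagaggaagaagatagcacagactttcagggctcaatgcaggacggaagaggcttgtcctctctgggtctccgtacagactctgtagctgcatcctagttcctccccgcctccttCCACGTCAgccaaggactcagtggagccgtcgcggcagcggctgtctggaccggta
Ssr2: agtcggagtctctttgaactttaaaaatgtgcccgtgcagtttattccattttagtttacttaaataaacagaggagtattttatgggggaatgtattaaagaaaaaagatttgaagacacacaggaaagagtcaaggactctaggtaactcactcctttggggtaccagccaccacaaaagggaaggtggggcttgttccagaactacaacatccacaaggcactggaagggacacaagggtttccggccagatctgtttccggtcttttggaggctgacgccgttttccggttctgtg

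After later training, 5 probes of this pathway were higher and 4 lower than in sedentary hearts of 24 weeks. Parts of the entry machinery were higher (Ssr2, Sec61b, Sec11a), and with them Ddit3 and the cargo receptor Tmed3. The oxidase Ero1a, the isomerase Pdia6, the coat subunit Copb1 and the transcription factor Xbp1 were lower. These are 9 of 50 probes (18%) at an adjusted p below 0.05 in limma, against 12.4% of all probes tested (4.59% higher and 7.79% lower). The median log2 fold change of the 50 was 0.03, and -0.01 over all probes. All 9 had the same sign on each of the 3 chips, as had 29 of 50 members (58%) and 48.8% of all probes. Since the 9 were chosen by p on these same arrays, their equal signs are no separate check. With each array scaled to a common median in place of quantile normalization, the split was 17 higher and 4 lower (21 of 50). On that scale 49.2% of all probes passed, and the median of all probes itself stood at 0.24. The arrays were scaled to the median of the 7163 probes detected on all of them, so 0.24 is not the reference that the scaling sets. In whole heart, a change in the number of cells of a type and a change in RNA per cell cannot be told apart. The arrays of later exercise rats were also dimmer than those of sedentary rats, and none of the 9 calls remained when array brightness or a length score was entered as a covariate (values below), so each result that follows carries that limit.

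**Figure D1:**
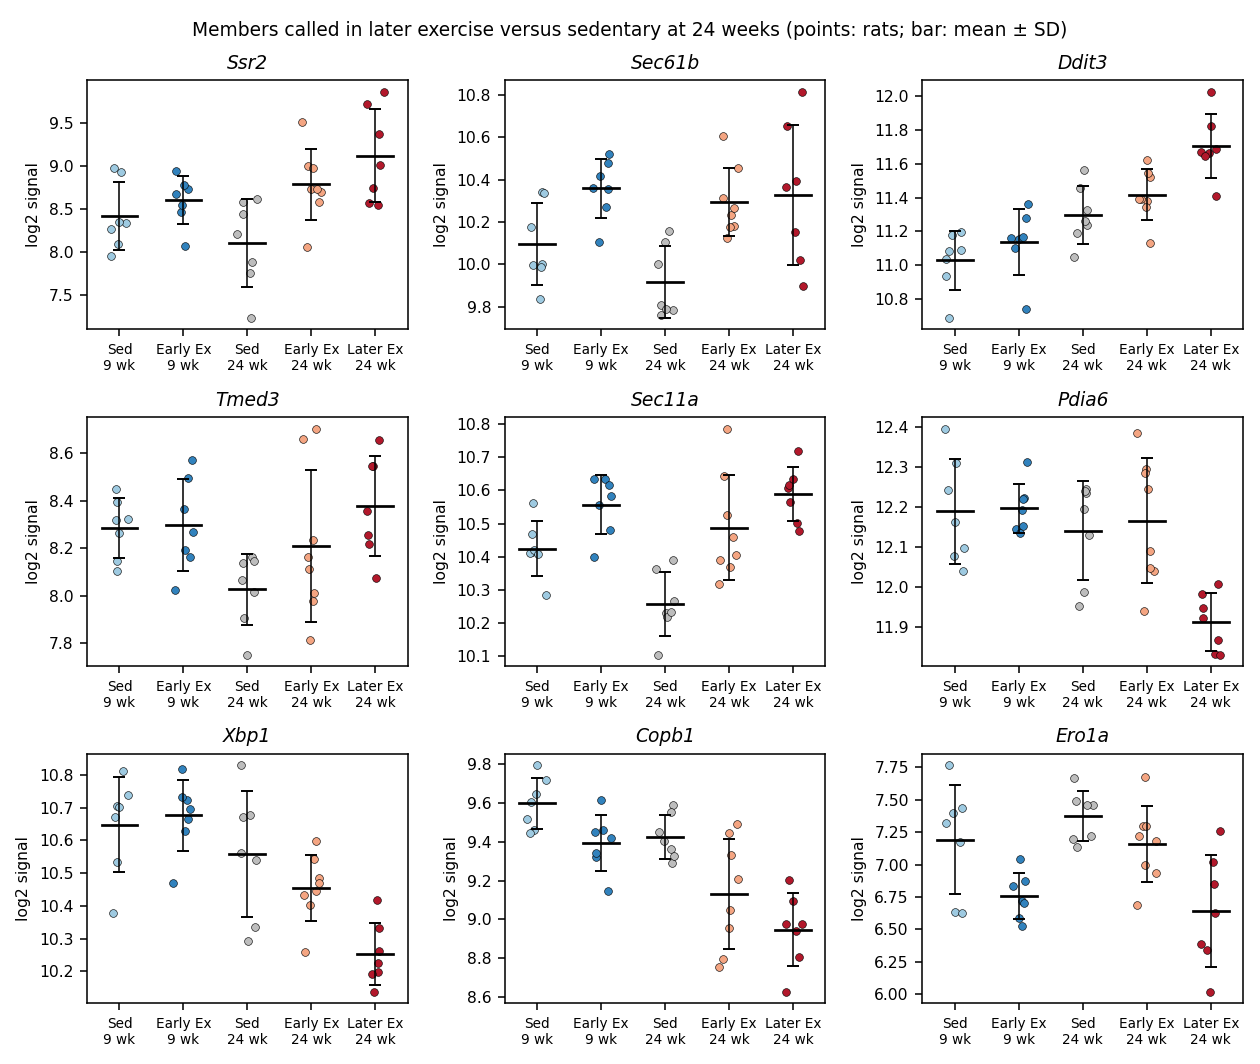
Log2 signal of the 9 probes called in later exercise versus sedentary hearts of 24 weeks, by group (Sed, sedentary; Early Ex, early exercise; Later Ex, later exercise); each point is 1 rat, and the bars give the mean and SD. The 7 later exercise hearts lie above all 7 sedentary hearts of 24 weeks for Sec11a and below all of them for Copb1 (probe ILMN_1363677), and the groups overlap for the other 7 genes.

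Among the 4 subunits of TRAP, Ssr2 (the beta subunit) stood apart. Its log2 signal ran from 7.23 to 8.62 (median 8.22) in sedentary and from 8.55 to 9.87 (median 9.02) in later exercise hearts of 24 weeks. The ranges overlapped narrowly, and the 2 highest later exercise values, 9.87 and 9.73, came from the 2 dimmest arrays of the group. The fold was 2.02 (log2 1.02, standard error 0.22, adjusted p = 0.00216), with log2 values of 1.07, 0.82 and 1.49 on chips 1, 2 and 3. Ssr4, the delta subunit, had medians of 10.95 in sedentary and 11.20 in later exercise hearts (log2 0.19, standard error 0.082, adjusted p = 0.126). Ssr1 (alpha), a probe near background that was detected on 28 arrays, stood at 5.94 and 6.35 (log2 0.15, adjusted p = 0.391), and Ssr3 (gamma) at 11.39 and 11.30 (log2 -0.03, adjusted p = 0.876). The 4 subunits therefore gave unequal values within the same hearts, and differences between them were not tested.

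Of the Sec61 channel, only the beta subunit passed the test. Sec61b ran from 9.76 to 10.16 (median 9.81) in sedentary and from 9.90 to 10.82 (median 10.37) in later exercise hearts, with overlap. Its fold was 1.33 (log2 0.41, standard error 0.11, adjusted p = 0.0118). Sec61a2, an alpha subunit, had medians of 10.56 and 10.48 (adjusted p = 0.689) and Sec62, which helps some precursors into the channel, 11.24 and 11.28 (adjusted p = 0.907). The probes of Sec61a1 and Sec61g were detected on 7 arrays each, and their medians of 5.68 and 5.69 (Sec61a1) and 5.67 and 5.70 (Sec61g) say little about either subunit.

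The catalytic subunits of signal peptidase were represented by Sec11a and Sec11c. Sec11a ran from 10.10 to 10.39 (median 10.23) in sedentary and from 10.48 to 10.72 (median 10.61) in later exercise hearts, so that every trained heart was above every sedentary one. Its fold was 1.26 (log2 0.33, standard error 0.067, adjusted p = 0.00129). Groups that do not overlap in this way were found for 2 of 50 members and 1.44% of all probes. Sec11c stood at medians of 11.61 and 11.82 (log2 0.22, standard error 0.099, adjusted p = 0.151). None of the 4 probes of the signal recognition particle passed: the log2 fold change was 0.14 for Srp14, which pauses elongation, 0.05 for Srp19, 0.04 for Srp68 and -0.16 for Srp54a, the subunit that reads the signal sequence, with 0.261 the smallest adjusted p.

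Of the 8 probes of folding enzymes and lectin chaperones, 6 had a log2 fold change below 0 and 2 passed the test as lower. Among all probes 48.1% were above 0 and 7.79% were called lower, and with 8 probes the difference from these shares was not tested. With arrays on a common median, 5 were below 0. All 8 lay below the median of all probes, which was not the median used for scaling. Ero1a, which passes oxidising equivalents to the disulfide isomerases, ran from 7.14 to 7.67 (median 7.46) in sedentary and from 6.02 to 7.26 (median 6.63) in later exercise hearts. The groups overlapped, and the fold was 0.602 (log2 -0.73, standard error 0.16, adjusted p = 0.00294), with log2 values of -0.95, -0.32 and -0.92 on chips 1, 2 and 3. Pdia6, a disulfide isomerase, ran from 11.95 to 12.24 (median 12.20) in sedentary and from 11.83 to 12.01 (median 11.92) in later exercise hearts. Its fold was 0.854 (log2 -0.23, standard error 0.070, adjusted p = 0.0291), and the call ended when any of 6 of the 14 rats was left out. The lectin chaperones Calr and Canx, whose promoters hold the stress element, had log2 fold changes of -0.15 (adjusted p = 0.131) and -0.22 (adjusted p = 0.463). The remaining 4 isomerases stood between -0.26 (Pdia2, adjusted p = 0.182) and 0.07 (Pdia3).

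The regulators of the stress response did not move one way. Ddit3, the factor CHOP that Atf4 induces, ran from 11.05 to 11.56 (median 11.26) in sedentary and from 11.41 to 12.03 (median 11.67) in later exercise hearts, with 1 later exercise heart inside the sedentary range. Its fold was 1.33 (log2 0.41, standard error 0.096, adjusted p = 0.00447). Xbp1, whose promoter holds the stress element, ran from 10.29 to 10.83 (median 10.56) in sedentary and from 10.14 to 10.42 (median 10.23) in later exercise hearts, with overlap. The fold was 0.809 (log2 -0.31, standard error 0.077, adjusted p = 0.00773), and the array does not tell the spliced from the unspliced transcript. Atf4 had medians of 10.37 and 10.45 (log2 0.16, standard error 0.082, adjusted p = 0.205).

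Among coat and cargo genes, 1 COPI probe was lower and 1 p24 receptor higher. Copb1 (beta subunit of COPI, probe ILMN_1363677) ran from 9.29 to 9.59 (median 9.40) in sedentary and from 8.63 to 9.21 (median 8.97) in later exercise hearts, with no overlap. Its fold was 0.717 (log2 -0.48, standard error 0.10, adjusted p = 0.00182), whereas the other Copb1 probe, ILMN_2039866, had overlapping groups with medians of 8.98 and 8.73 (log2 -0.19, standard error 0.084, adjusted p = 0.131). The other COPI probes, Cope, Copg1, Copg2 and Copz1, had log2 fold changes from -0.18 to 0.21 and the smallest adjusted p among them was 0.298. Tmed3, a p24 cargo receptor, ran from 7.75 to 8.16 (median 8.06) in sedentary and from 8.07 to 8.65 (median 8.36) in later exercise hearts. The groups overlapped, and the fold was 1.28 (log2 0.35, standard error 0.11, adjusted p = 0.0349), a call that ended when any of 5 of the 14 rats was left out. The 6 other p24 probes lay between -0.38 (Tmed5) and 0.21 (Tmed1), the 6 COPII probes between -0.41 (Sec24a) and 0.22 (Sec13), and the SNAREs Sec22a and Sec22b at 0.23 and 0.02, none past the test.

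**Figure D2:**
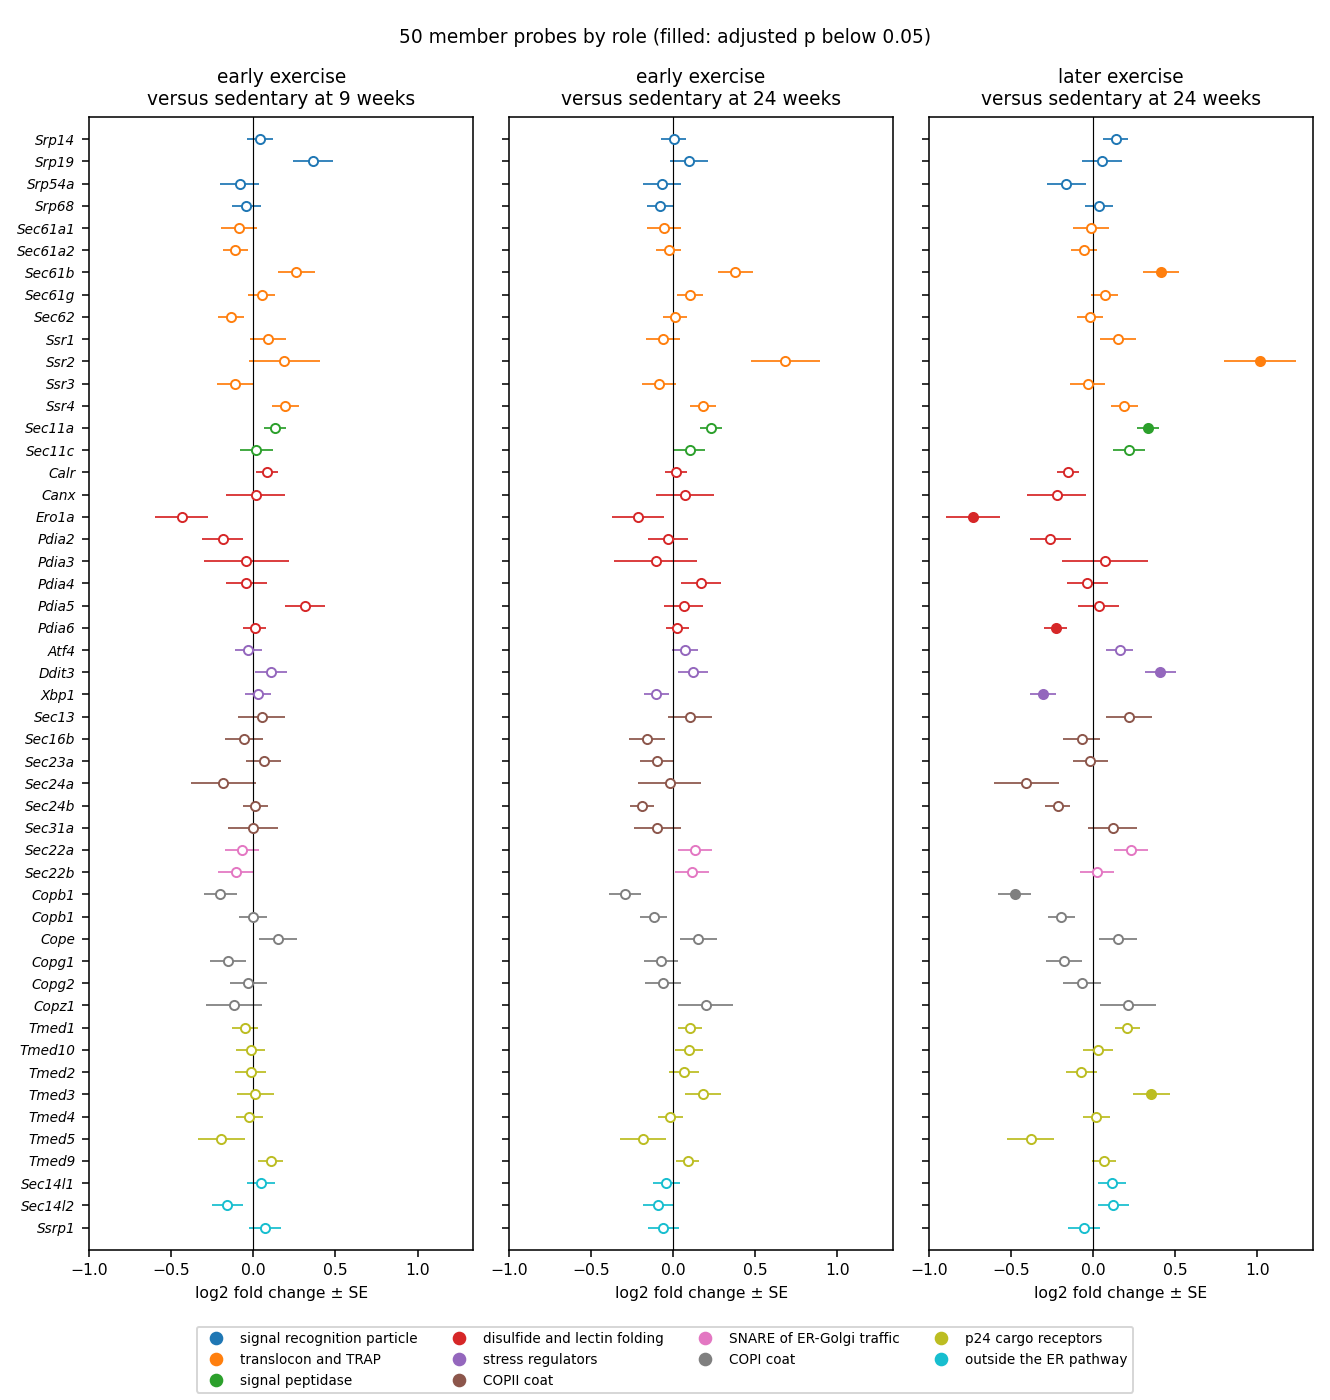
Log2 fold change (x axis, bars: standard error) of the 50 member probes, ordered and coloured by role, in early exercise versus sedentary rats of 9 and of 24 weeks and in later exercise versus sedentary rats of 24 weeks; filled points passed an adjusted p of 0.05, and the upper Copb1 entry is probe ILMN_1363677. The 9 filled points all stand in the later exercise panel, from -0.73 (Ero1a) to 1.02 (Ssr2).

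Genes of the same pathway outside the name rule were read from 5 lists. Of 28 chaperones and cofactors, 2 fell after later training, Hspa5 (BiP, the main luminal chaperone; log2 -0.29, standard error 0.073, adjusted p = 0.00735) and its cofactor Dnajc3 (log2 -0.27, adjusted p = 0.0358), and Fkbp7, a prolyl isomerase, rose (log2 0.29, adjusted p = 0.0429). Of 15 genes of stress signalling, Atf5, a transcription factor, rose (log2 0.47, adjusted p = 0.0490) and none fell. Of 13 genes of endoplasmic reticulum degradation, the ubiquitin-conjugating enzymes Ube2j2 and Ube2g2 rose (log2 0.31 and 0.35, adjusted p = 0.0361 for each). Of 34 traffic genes, Ergic3, Use1, Rab2a and Trappc1 rose (log2 0.26 to 0.41) and Bcap29 fell (log2 -0.35, adjusted p = 0.0248), and none of 10 targeting and glycosylation genes passed. The 100 genes of the 5 lists thus gave 8 higher and 3 lower calls, beside 4.59% and 7.79% of all probes. None of the 11 passed with brightness or length score as a covariate. On a common median Hspa5 stood at -0.01 (adjusted p = 0.949 for a difference from 0). No fall of Hspa5 was thus shown on that scale. The median of all probes, which was not the one used for scaling, stood at 0.24 there.

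Array brightness and the length score were both lower in later exercise than in sedentary hearts of 24 weeks. The mean raw signal ran from 315 to 709 (median 578) in later exercise and from 715 to 1307 (median 897) in sedentary rats of 24 weeks, with no overlap (ratio of means 0.592, two-sided exact permutation p = 0.000583, n = 7 and 7, 0.00292 adjusted over 5 comparisons). A length score, the mean log2 signal of 17 very long transcripts minus that of 59 ribosomal protein genes, was 0.52 lower (exact p = 0.00117, adjusted p = 0.00293). Of the same 17 transcripts 10 were called lower, beside 7.79% of all probes. As they are part of the score, this is no separate observation. Pearson's r was taken with group means removed from all 36 arrays. With log2 brightness r was -0.67 for Ssr2, -0.50 for Sec11a, -0.31 for Ddit3, -0.14 for Sec61b, -0.05 for Xbp1, 0.003 for Tmed3, 0.21 for Copb1 (ILMN_1363677), 0.23 for Pdia6 and 0.33 for Ero1a. With the length score r was, in the same order, -0.24, -0.17, -0.003, -0.68, 0.17, -0.34, 0.48, 0.23 and 0.40. With brightness as a covariate, whose slope was fitted within the 5 groups over all 36 arrays, no member passed and 1.31% of all probes did. The log2 fold change then stood at 0.32 for Ssr2 (adjusted p = 0.425), 0.35 for Sec61b (adjusted p = 0.175), 0.28 for Ddit3 (adjusted p = 0.195), 0.20 for Sec11a (adjusted p = 0.160), 0.35 for Tmed3 (adjusted p = 0.178), -0.48 for Ero1a (adjusted p = 0.183), -0.38 for Copb1 (adjusted p = 0.107), -0.32 for Xbp1 (adjusted p = 0.0869) and -0.16 for Pdia6 (adjusted p = 0.318). With the length score, Sec61b stood at 0.01 (adjusted p = 0.974), Ssr2 at 0.72 (adjusted p = 0.201), Ddit3 at 0.41 (adjusted p = 0.114) and Sec11a at 0.28 (adjusted p = 0.116). Because the brightness of the groups does not overlap, its part and that of later training cannot be told apart, and the part of RNA composition was not tested further. Without the 2 dimmest later exercise arrays, 7 of 50 members passed (8.02% of all probes), Tmed3 and Pdia6 being lost.

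**Figure D3:**
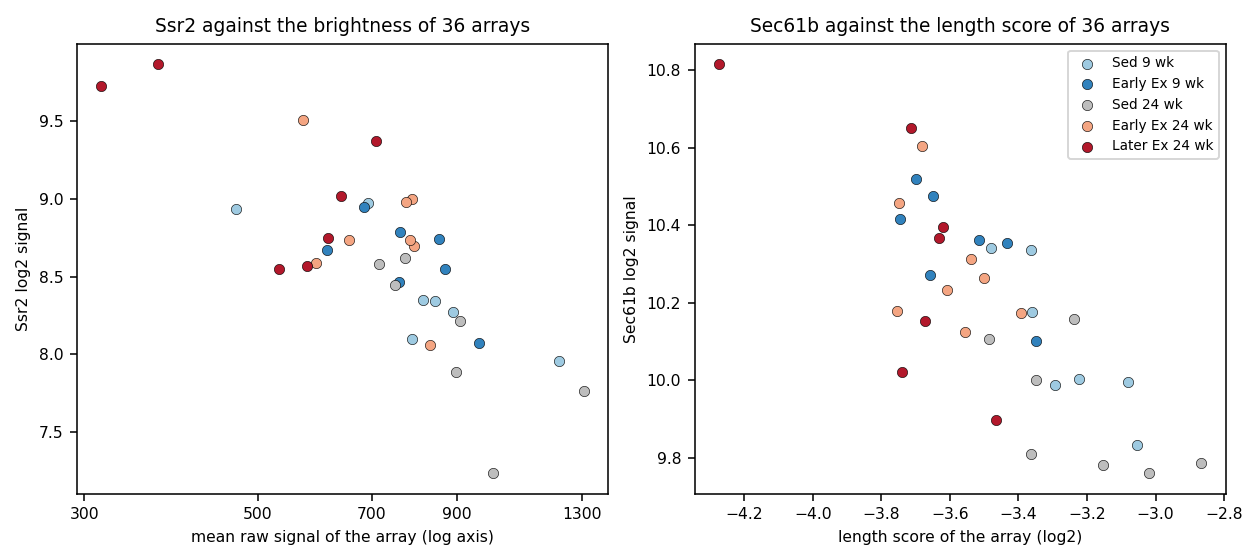
Left, Ssr2 log2 signal against the mean raw signal of the array (log axis); right, Sec61b log2 signal against the length score of the array (log2 units); each point is 1 of 36 arrays, coloured by group. The 2 dimmest later exercise arrays (315 and 373) carry the highest Ssr2 values, and the later exercise array with the lowest length score (-4.27) carries the highest Sec61b value, 10.82.

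**Figure D4:**
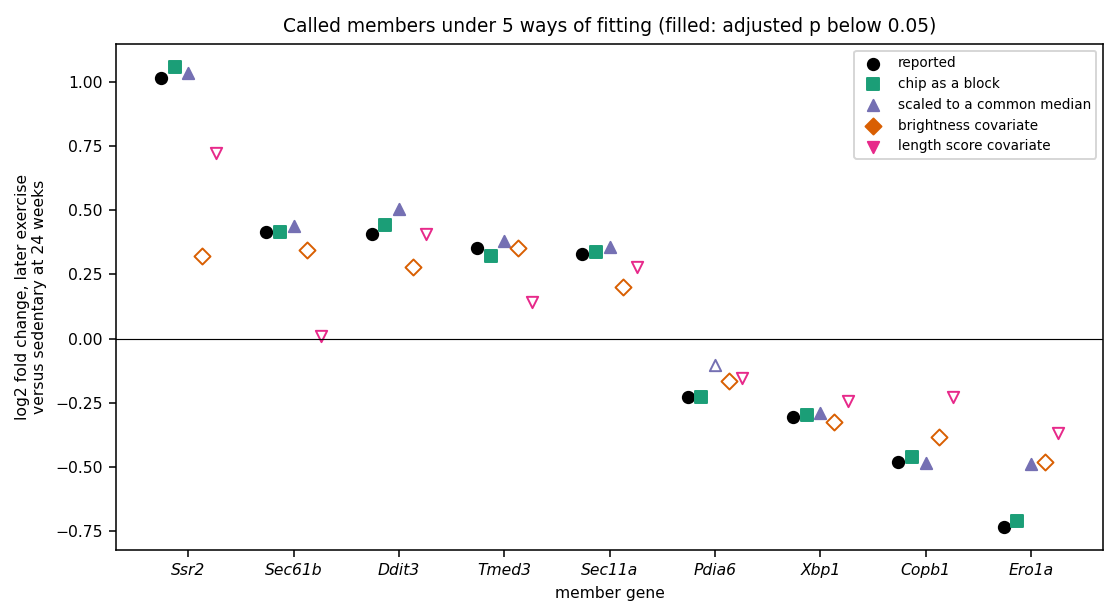
Log2 fold change of the 9 called members in later exercise versus sedentary rats of 24 weeks under 5 ways of fitting; filled symbols passed an adjusted p of 0.05. All 9 keep their sign, all 9 pass with chip as a block, 8 pass after scaling to a common median (Pdia6 does not), and none passes with brightness or length score as a covariate.

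With group means removed from the 36 arrays, the probes with a symbol whose signal ran most closely with Ssr2 were Bola3 (Pearson's r = 0.81) and Isca1 (0.76), which act in iron-sulfur cluster assembly, the complement inhibitor Cd59b (0.76), the ATP synthase subunit Atp5f1b (0.75) and Edem2 (0.73), of the degradation pathway of the endoplasmic reticulum. These are the highest of all probes with a symbol, so high values come with the choice. The closest members were Tmed9 (0.47), Srp68 (0.46), Sec11a (0.45), Sec61b (0.43) and Ddit3 (0.35). The other TRAP subunits stood at 0.15 (Ssr4), -0.07 (Ssr3) and -0.46 (Ssr1). All values come from the same 36 arrays, and what brightness contributes to them was not tested.

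Cell type markers were read for the whole list of each type. In later exercise against sedentary hearts of 24 weeks, 12.4% of all probes were called, and the marker calls below are read beside that share. Of 8 fibroblast markers 1 rose (Col3a1), while 3 of 8 were above 0 and the list median was -0.14. Array means of that list were 10.63 to 11.35 in later exercise and 10.96 to 11.20 in sedentary hearts. Myh7 rose and Actn2 fell among 10 cardiomyocyte markers, C1qb rose among 6 macrophage markers and Cfd among 3 adipocyte markers, and none of 6 endothelial or 3 mural markers passed. Of 7 B and plasma cell markers listed, whose secretory cells are rich in this machinery, 3 had a probe with that symbol. Of these 1 was detected, Cd79b, at 5.67 to 6.07 and 5.60 to 5.92, and Ms4a1 and Mzb1 were not. Their part in the result was not tested.

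Early training left no member past the test at either age. At 9 weeks 0 of 50 members and 0% of all probes passed, and 5 members (10%) and 7.92% of all probes had an unadjusted p below 0.05. Srp19, which the signal recognition particle needs for its assembly, ran from 10.64 to 11.84 (median 11.65) in sedentary and from 11.67 to 11.95 (median 11.81) in early exercise hearts (log2 0.36, standard error 0.12, adjusted p = 0.479). The lowest sedentary value, 10.64, is that of replicate 6, without which the log2 difference was 0.23. Pdia5 (log2 0.31), Sec61b (0.26) and Ssr4 (0.19) were on the same side, with adjusted p from 0.530 to 0.563. Ero1a ran from 6.63 to 7.77 (median 7.32) in sedentary and from 6.52 to 7.04 (median 6.72) in early exercise hearts, with overlap (log2 -0.44, standard error 0.16, adjusted p = 0.512). Below 0 were also Copb1 (ILMN_1363677, -0.20), Sec14l2 (-0.16) and Sec62 (-0.14). Ssr2 had medians of 8.34 and 8.67 (log2 0.19, standard error 0.22, adjusted p = 0.882). Array brightness did not separate these groups (ratio 0.963, exact p = 0.773), whereas the length score was 0.31 lower after training (exact p = 0.00408, adjusted p = 0.00680); its part was not tested beyond the covariate fit, in which no member passed.

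At 24 weeks, long after early training had ended, again 0 of 50 members and 0% of all probes passed, and 6 members (12%) and 10.4% of all probes had an unadjusted p below 0.05. Ssr2 ran from 8.06 to 9.51 (median 8.74) in early exercise against 7.23 to 8.62 in sedentary hearts (log2 0.68, standard error 0.21, adjusted p = 0.214). Sec61b ran from 10.12 to 10.60 (median 10.25) against 9.76 to 10.16, so that the groups met at their ends (log2 0.38, standard error 0.11, adjusted p = 0.150). Sec11a (log2 0.23, standard error 0.065, adjusted p = 0.150) and Ssr4 (0.18, adjusted p = 0.404) were on the same side. Below 0 were Copb1 (-0.30 for ILMN_1363677, adjusted p = 0.244, and -0.12 for ILMN_2039866), Sec24b (-0.19, adjusted p = 0.329) and Sec16b (-0.16). Brightness was 0.798 of sedentary (exact p = 0.0301, adjusted p = 0.0502, n = 8 and 7) and the length score 0.39 lower (exact p = 0.000622, adjusted p = 0.00293). This comparison uses the same 7 sedentary rats as the later exercise comparison, so the values of one cannot stand as a check of the other.

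Later against early exercise at 24 weeks, which does not use the sedentary rats, also gave 0 of 50 members, against 0.438% of all probes, and 7 members (14%) and 12.2% of all probes at an unadjusted p below 0.05. Pdia6 came nearest, with 11.83 to 12.01 in later and 11.94 to 12.38 in early exercise hearts (log2 -0.25, standard error 0.068, adjusted p = 0.0812). Ero1a followed at log2 -0.52 (standard error 0.16, adjusted p = 0.137), Xbp1 at -0.20 (adjusted p = 0.237) and Calr at -0.17 (adjusted p = 0.255). Above 0 were Ddit3 (0.29, standard error 0.093, adjusted p = 0.159), Ssr1 (0.22), Sec14l2 (0.22) and Sec14l1 (0.16). Of the 100 genes of the 5 lists outside the rule, 1 was lower and 1 higher. Hspa5 was lower (log2 -0.31, standard error 0.070, adjusted p = 0.0289), and its adjusted p was 0.145 with brightness as a covariate. On a common median its adjusted p was 0.168 for a difference from 0, so Hspa5 was not called on that scale. The median of all probes, which was not the one used for scaling, stood at 0.15 there. Arfgap1, which acts on the Arf1 GTPase of COPI coats, was higher (log2 0.30, standard error 0.073, adjusted p = 0.0477), with an adjusted p of 0.227 with brightness as a covariate. Both comparisons of later exercise rats use the same 7 arrays, so the Hspa5 values are not independent of each other. Later exercise arrays were dimmer (ratio 0.743, exact p = 0.0118, adjusted p = 0.0295), and the length score was 0.13 lower (exact p = 0.231).

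The response to later training was also set against the response to early training at 9 weeks, each relative to sedentary rats of its age. No member passed (0 of 50, against 0.146% of all probes, with 10 members, 20%, and 13.1% of all probes at an unadjusted p below 0.05). The difference was 0.83 for Ssr2 (standard error 0.31, adjusted p = 0.249), 0.30 for Ddit3 (adjusted p = 0.336), 0.28 for Sec14l2 and 0.26 for Tmed1. It was -0.33 for Xbp1 (standard error 0.11, adjusted p = 0.181), and -0.24 for Calr, -0.24 for Pdia6 and -0.23 for Sec24b. The 9 calls of later training are therefore not shown to differ from early training. The early exercise difference at 24 weeks against that at 9 weeks gave 0 of 50 members (0% of all probes) and 0 members at an unadjusted p below 0.05, against 3.05% of all probes; the member values ran from -0.27 (Srp19, -0.13 without sedentary replicate 6 of 9 weeks) to 0.49 (Ssr2).

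In sedentary hearts of 24 against 9 weeks, Pdia2 was higher and Sec62 lower with age, 2 of 50 members (4%). This share is near the 6.56% of all probes that passed, and the median of the 50 was -0.01. Pdia2, a disulfide isomerase best known from the pancreas, ran from 6.50 to 7.01 (median 6.74) at 9 weeks and from 7.12 to 7.43 (median 7.33) at 24 weeks, with no overlap. Its fold was 1.48 (log2 0.56, standard error 0.13, adjusted p = 0.00410). Sec62 ran from 11.35 to 11.61 (median 11.54) at 9 weeks and from 11.09 to 11.34 (median 11.24) at 24 weeks, again with no overlap, and its call ended when any of 11 of the 14 rats was left out (fold 0.840, log2 -0.25, standard error 0.078, adjusted p = 0.0416). Groups did not overlap for these 2 members and for 2.24% of all probes. Not past the test were Sec22b (log2 -0.30, adjusted p = 0.0763), Pdia4 (-0.31, adjusted p = 0.150), Sec11a (-0.17, adjusted p = 0.145), Ddit3 (0.27, adjusted p = 0.0891), Srp19 (0.24, adjusted p = 0.280, and 0.10 without sedentary replicate 6 of 9 weeks) and Srp68 (0.16, adjusted p = 0.302).

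Over the same interval 13 of 19 secreted matrix genes fell and 1 rose (Timp1, log2 0.42), with a list median of -0.75. Col1a1, the alpha 1 chain of type I collagen, fell by 2.14 on the log2 scale (standard error 0.19), and Eln, elastin, fell by 2.13 (standard error 0.23). Col3a1 fell by 1.44. Of the 100 genes of the 5 lists outside the rule, 4 rose and 3 fell, near the 6.56% of all probes. Of the 34 traffic genes, 3 were higher (Kdelr1, Uso1, Trappc4; log2 0.37 to 0.49) and 1 was lower, Kdelr3 (log2 -0.73, standard error 0.13), which like Kdelr1 returns luminal proteins from the Golgi. Creb3l1, a membrane-bound factor that acts on collagen genes, fell (log2 -0.37, adjusted p = 0.0193), Creb3l2 rose (0.46, adjusted p = 0.0103) and Tusc3, of oligosaccharyl transferase, fell (-0.34, adjusted p = 0.0184). Of 8 fibroblast markers 5 fell, with array means of the list at 11.63 to 11.95 at 9 weeks and 10.96 to 11.20 at 24 weeks; 3 of them, Col1a1, Col1a2 and Col3a1, are also matrix genes, and their part in the member values was not tested. Brightness (ratio 1.11, exact p = 0.435) and length score (0.05 higher, exact p = 0.596) had no difference past the test.

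**Figure D5:**
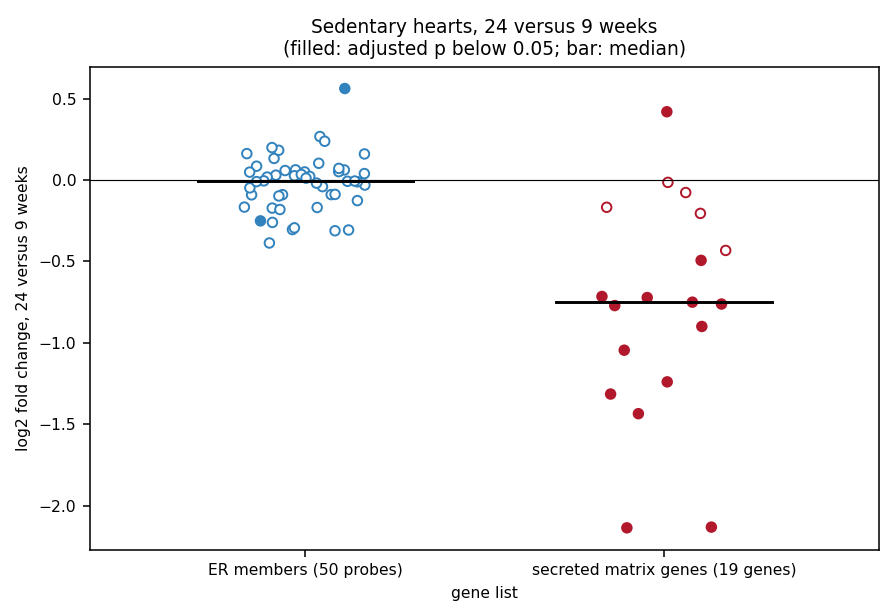
Log2 fold change (y axis) in sedentary hearts of 24 against 9 weeks for the 50 member probes and for 19 secreted matrix genes; each point is 1 probe, filled where the adjusted p was below 0.05, and the bar is the median. The members lie around their median of -0.01 with 2 filled points (Pdia2 above, Sec62 below), whereas 13 matrix genes are filled below 0, down to -2.14 (Col1a1).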

How the data were processed

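Hearts of 36 rats were measured, 1 array per rat, and groups follow the labels. The files give a signal intensity and a detection score per probe as deposited, the intensity being the scanner summary without background correction. The score's heading calls it a p value, yet it rises with the intensity, so it was taken as 1 minus a detection p. The authors also deposited a table of normalized log2 values, and the tests used it. Recomputation with limma 3.58.1 in R 4.3.3 (normexp background correction, offset of 16, quantile normalization, log2) differed from them by at most 0.0417, and the submitters' processing notes name R 3.2.2 and limma 3.24.15. The study's methods describe a different transformation and an analysis of variance for its own tests (unadjusted p up to 0.05, with fold limits of 0.75 and 1.25), and those transformed values were not used here.

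Probes with a detection score of at least 0.95 on 7 or more arrays were kept, without averaging probes of a gene. In limma, all 36 arrays entered 1 model with a mean for each of 5 groups and a moderated variance. For each of 7 comparisons, p-values were adjusted by Benjamini-Hochberg across the 10956 probes, and a probe was called at an adjusted p below 0.05. Genes named were, per comparison, the called members (at most 12 each way, by p) or, where a direction had fewer than 4 calls, its 4 members of smallest p. Added to these were all members of the signal recognition particle, the translocon and TRAP, signal peptidase, COPI and the regulators and, for Ssr2, the 5 probes and 5 members of highest correlation. Members and lists were chosen with earlier results of these data known. Gene symbols are those of the platform annotation, all members were matched by gene ID to RefSeq, and promoters came from RefSeq (GRCr8). The fit was tested on simulated data. Array brightness and length score were compared by exact permutation tests, two-sided, adjusted over 5 comparisons. Array correlations ran from 0.964 to 0.996, and between 8625 and 10244 probes were detected per array. The number of arrays limits precision.

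Alternatives were values recomputed from the raw signal, no background correction, scaling to a common median (over 7163 probes detected on all arrays), no detection filter, chip or replicate number as a block, no moderation, brightness or length score as a covariate, array weights, only the groups compared, the study's thresholds, each rat left out in turn and, added after seeing the data, removal of the 2 dimmest later exercise arrays. The labels give 12 arrays per chip and the study's methods 6; the labels were followed.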

Additional observations from a re-analysis of the deposited data

Results flagged for a closer look

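In the 11 probes called in any comparison, each of the 5 groups was examined for a lone array, 55 groups in all, and 2 stood out; chance alone flags about 1 group in 20. Ddit3 was lowest in early exercise replicate 5 of 9 weeks, at a log2 signal of 10.74, where the nearest other rat was at 11.10 and the gap was 0.576 of the range (limit 0.568 for 7 rats). Sec62 was lowest in sedentary replicate 4 of 24 weeks, at 11.09, where the nearest other rat was at 11.23 and the gap was 0.578 of the range. That rat is among the 11 whose removal ended the call of Sec62 in the age comparison.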

How the results depend on the processing

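Of the 9 members called after later exercise, Ssr2, Sec11a, Ero1a, Ddit3, Xbp1, Sec61b and Copb1 (ILMN_1363677) kept their call with each of 14 rats left out, and the count of calls ran from 7 to 11. The count was 21 on a common median (8 of the 9 among them; 49.2% of all probes), 0 with brightness as a covariate (1.31%), 0 with the length score (1.48%) and 5 with only the groups compared (5.39% of all probes), where Xbp1, Sec61b, Tmed3 and Pdia6 were lost. Later against early exercise gave 6 on a common median (9.33% of all probes), 1 at the study's thresholds (Ero1a; 2.14%), and 0 to 1 with a rat left out (1, Pdia6, without early exercise replicate 8). The age comparison gave 1 on a common median (5.81% of all probes), 1 with brightness as a covariate (6.21%), 4 with chip as a block (9.55%) and 4 with array weights (10.4%), Sec22b and Ddit3 being added in each, 1 at the study's thresholds (7.07%) and 1 to 2 with a rat left out; Pdia2 passed in every alternative run. At the study's thresholds there were 2 after early exercise at 9 weeks (Srp19 higher, Ero1a lower; 1.24% of all probes), 2 at 24 weeks (Ssr2, Sec61b; 1.81%) and 2 in the difference between later and early responses (Ssr2, Tmed3; 6.99%), which gave 8 on a common median (20.5%). All counts at the study's thresholds apply its limits to the limma fit of the deposited values and do not repeat its own tests. For early exercise, the study's own lists hold Srp19 at 9 weeks and Ssr2 at 24 weeks, but not Ero1a at 9 weeks or Sec61b at 24 weeks. Copb1 (ILMN_2039866) in early exercise at 24 weeks changed sign with the length score as a covariate, to 0.052 (adjusted p = 0.861).

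With the replicate number as a block, which pairs no rats by the labels, the count of later against early exercise went from 0 to 2 (Pdia6, Ero1a; 1.81% of all probes) and no other count of members moved by more than 1.5 times. Same-numbered rats of different groups did not deviate together (median r 0.0475 over 70 pairs, and 0.00867 over 448 pairs of different numbers). All other alternatives left the counts within 1.5 times. The cause of these moves was not tested. Probes near background (Sec61a1, Sec61g, Copg2) limit what can be said of those subunits.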
